A study of Mus musculus with 12 samples.

Results

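The haemoglobin and erythroid genes described here are the adult alpha globins Hba-a1 and Hba-a2, the adult beta globins Hbb-bs and Hbb-bt, and Alas2. They were taken by gene symbol from a table in FPKM, fragments relative to transcript length and to all those mapped in a library. All 5 were listed among 18962 genes, and 2 of them, Hba-a1 and Hba-a2, were among the 13071 that reached 1 FPKM in 3 or more of the 12 libraries and were tested. The set serves as a measure of the blood left in the brains. Whole brain without cerebellum and olfactory bulb was sampled from wild-type CBA/N mice, an inbred laboratory strain, around 13:00. Winter mice spent 4 weeks at 10 °C with 8 h light and 16 h dark a day, and summer mice 4 weeks at 30 °C with 16 h light and 8 h dark. Each season had 3 male and 3 female libraries, by sample codes that the labels do not spell out and whose letters were read as sex, day length and warmth. Light and temperature changed together and cannot be told apart. Nothing used here gives the age of the mice, says whether the brains were perfused or says that each library is 1 animal, so p-values measure the spread between libraries, which may be technical.

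Haemoglobin carries oxygen as a complex of paired alpha and beta chains, each holding haem. Red cells in the blood have no nucleus, but the youngest of them, reticulocytes, still hold abundant globin mRNA. Alas2 encodes the erythroid form of the enzyme that starts haem synthesis, and its relative Alas1 serves other cells. In brain tissue these transcripts come mostly from blood in the vessels, although some neurons are also known to make globin mRNA. Beta globin genes of laboratory mice come in several haplotypes. The single haplotype of the reference strain C57BL/6J carries Hbb-bs and Hbb-bt, and the diffuse haplotype of other strains carries Hbb-b1 and Hbb-b2. Which haplotype these mice carry is not stated in the labels.

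Hba-a1 lies on chromosome 11 of GRCm38.p6 between 32283672 and 32284486, and Hba-a2 on the same chromosome between 32296492 and 32297310. Hbb-bs and Hbb-bt lie on chromosome 7, at 103826523 to 103827928 and 103812524 to 103813923. Alas2 lies on chromosome X between 150547417 and 150570622. The RefSeq table also lists Hbb-b1 and Hbb-b2 on chromosome 7, but in a numbering that does not match these positions, so no coordinates are given for them. The coding sequences of each pair of reference copies differ at 1 base, as C381T between Hba-a1 and Hba-a2 and C417T between Hbb-bs and Hbb-bt, counted from 1 at the start codon (gene named first, then its copy). Of 429 coding bases the alpha pair shares 428, with a longest run in common of 380. Of 444 coding bases the beta pair shares 443, with a longest run of 416. The 41 coding bases around each difference, from the GENCODE M21 transcripts of GRCm38 and with the differing base in capitals, show how little separates the copies when fragments are assigned to one or the other. The separate values of Hba-a1 and Hba-a2, and of Hbb-bs and Hbb-bt, are therefore uncertain, and sums are given beside them. Untranslated parts of the transcripts were not compared. No sequence of Hbb-b1 or Hbb-b2 was compared either, so how well fragments of these genes can be assigned is unknown.
Hba-a1: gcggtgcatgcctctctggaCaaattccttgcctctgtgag
Hba-a2: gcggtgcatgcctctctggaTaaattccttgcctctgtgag
Hbb-bs: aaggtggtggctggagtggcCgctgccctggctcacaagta
Hbb-bt: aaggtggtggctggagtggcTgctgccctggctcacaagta

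The promoters are shown because Hba-a1 and Alas2 moved together between libraries, with those of the reference beta genes beside them. Any part of the promoters in that shared movement was not tested. Each line gives the 250 bases before the start of the RefSeq gene (GRCm38.p6), 5′ to 3′ on the coding strand, for Hba-a1 (chr11:32283422-32283671, plus strand), Hbb-bs (chr7:103827929-103828178, minus strand), Hbb-bt (chr7:103813924-103814173, minus strand) and Alas2 (chrX:150547167-150547416, plus strand). Capitals mark the motifs searched on both strands, which are the GATA site as AGATAA or, in another spelling, TGATAA, the CCAAT box as CCAAT, the CACCC box as CCACACCC, the GC box as CCGCCC, and the TATA box as TATAAA, in a further spelling as ATAAAA, or in the shorter form TATAA, which was chosen after these promoters had been read. TATAA lies within TATAAA, and overlapping matches share capitals.
Hba-a1: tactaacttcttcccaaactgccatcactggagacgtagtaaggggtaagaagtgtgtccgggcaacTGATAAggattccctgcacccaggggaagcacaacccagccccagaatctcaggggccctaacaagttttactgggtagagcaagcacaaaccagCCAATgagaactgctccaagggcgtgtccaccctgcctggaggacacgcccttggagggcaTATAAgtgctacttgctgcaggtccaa
Hbb-bs: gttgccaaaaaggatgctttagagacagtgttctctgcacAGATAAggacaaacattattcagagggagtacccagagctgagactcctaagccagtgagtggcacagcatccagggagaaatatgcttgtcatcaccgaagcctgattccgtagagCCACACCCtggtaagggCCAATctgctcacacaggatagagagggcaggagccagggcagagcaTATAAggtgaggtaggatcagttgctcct
Hbb-bt: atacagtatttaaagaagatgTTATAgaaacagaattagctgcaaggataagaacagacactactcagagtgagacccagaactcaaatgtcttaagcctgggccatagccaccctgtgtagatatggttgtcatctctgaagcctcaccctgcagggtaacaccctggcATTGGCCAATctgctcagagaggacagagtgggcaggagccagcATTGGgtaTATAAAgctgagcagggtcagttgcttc
Alas2: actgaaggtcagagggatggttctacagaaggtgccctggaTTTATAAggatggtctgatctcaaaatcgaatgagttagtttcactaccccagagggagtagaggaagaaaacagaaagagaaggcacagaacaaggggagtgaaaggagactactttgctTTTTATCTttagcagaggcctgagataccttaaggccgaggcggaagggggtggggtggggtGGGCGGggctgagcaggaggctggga

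A GATA letter match stood in Hba-a1, Hbb-bs and Alas2. Among 27018 RefSeq promoters of the same length, 10.3% held AGATAA and 8.16% held TGATAA. The letters CCAAT stood in Hba-a1, Hbb-bs and Hbb-bt, and in 34.5% of all promoters. CCACACCC stood in Hbb-bs and in 3.19% of all promoters, while CCGCCC stood in Alas2 and in 32.9%. TATAA stood in all 4 and in 23.5% of all promoters, TATAAA in Hbb-bt and Alas2 and in 13.0%, and ATAAAA in Alas2 and in 17.6%. The windows of Hba-a1 and Hba-a2 are identical over the 247 bases in which they overlap, shifted by their annotated starts, whereas those of Hbb-bs and Hbb-bt are 69.3% identical. These matches describe letters in a window and not sites in use.

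Before the globin values, the libraries themselves differed in a few respects. Sums of FPKM lay between 358511 and 375041, and read depth is unknown. Brain markers were present in every library, with the neuronal gene Snap25 at 1346 FPKM or more, the myelin gene Mbp at 1102 or more and the astrocyte gene Aqp4 at 30.8 or more. The Purkinje cell gene Pcp2 stood at 24.9 FPKM in male winter replicate 1 and at 2.05 or less in the other 11 libraries. The trend of each library with transcript GC content, as a Spearman correlation across genes (which are not independent replicates) with the deviation from the mean of all libraries, ran from -0.66 in female summer replicate 3 and -0.6 in female winter replicate 1 to 0.55 in male winter replicate 3.

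Alpha globin was carried almost wholly by the Hba-a1 row. Hba-a1 stood at 162, 238 and 210 FPKM in winter males (replicates 1 to 3) and at 166, 165 and 185 FPKM in summer males. In winter females it stood at 66.1, 150 and 120 FPKM, and in summer females at 72.2, 185 and 216 FPKM. The 4 lowest of the 12 libraries were female, with female winter replicate 1 and female summer replicate 1 well below the rest, and the highest was male winter replicate 2. The highest library held 3.59 times the Hba-a1 of the lowest. Hba-a2 stood between 0.26 and 1.42 FPKM and was 0.12% to 1.84% of the alpha sum, so the sum of both copies, 67.4 to 239 FPKM, was nearly that of Hba-a1 alone.

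The 2 beta members were nearly empty, and the beta globin signal lay in the rows Hbb-b1 and Hbb-b2. Hbb-bt was listed at 0 in all 12 libraries. Hbb-bs was listed at 0 in 6 libraries and reached 0.31 FPKM, in female summer replicate 1, with 0.11 or less elsewhere. Hbb-b1, one of the 2 beta genes of the diffuse haplotype, stood at 62.4, 86.2 and 74.8 FPKM in winter males and at 63.4, 56.6 and 75.5 FPKM in summer males. In winter females it stood at 39.6, 63.7 and 47.6 FPKM, and in summer females at 24.4, 77.2 and 82.8 FPKM. The libraries with the least Hbb-b1 were again female summer replicate 1 and female winter replicate 1. Hbb-b2, its neighbour, ranged from 2.38 to 12.6 FPKM with a median of 8.65, and was 8.89% to 13.4% of the sum of both. As a measure of beta globin, Hbb-bs and Hbb-bt would thus have returned almost nothing from these libraries, so Hbb-b1 and Hbb-b2 are described beside the members from here on, chosen after their values were seen.

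Alas2 was low but above 0 in every library. It stood at 0.62, 0.78 and 0.9 FPKM in winter males and at 0.57, 0.69 and 0.56 FPKM in summer males. It stood at 0.37, 0.51 and 0.52 FPKM in winter females and at 0.27, 0.73 and 0.75 FPKM in summer females. Alas2 was lowest in the same 2 female libraries as the globins, and no library reached the 1 FPKM of the filter. Its level was 0.303% to 0.559% of that of Hba-a1, per transcript length.

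**Figure D1:**
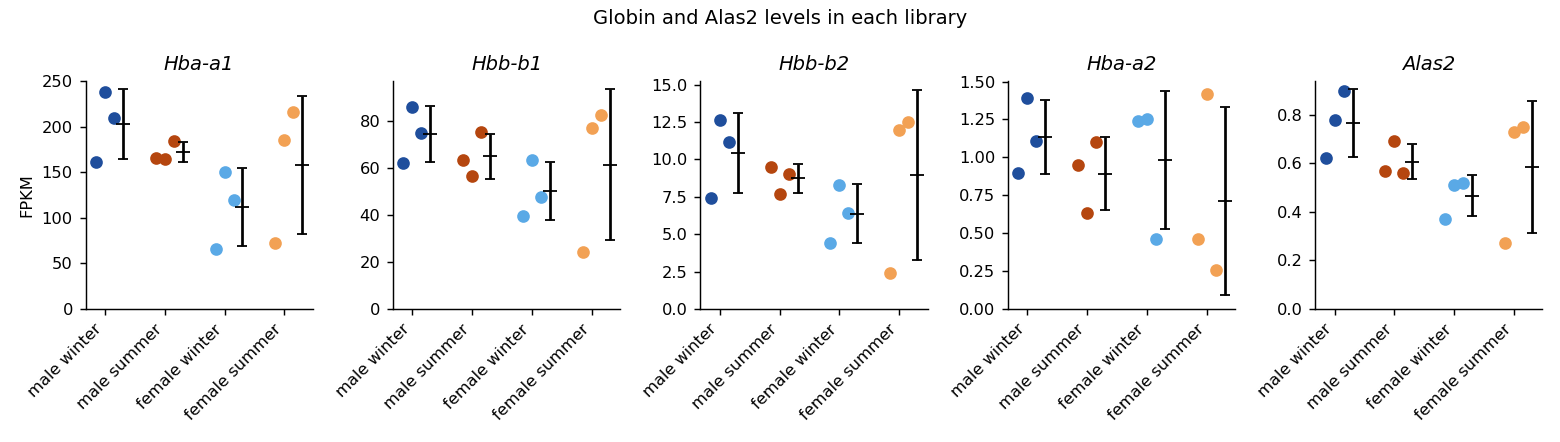
FPKM of Hba-a1, Hbb-b1, Hbb-b2, Hba-a2 and Alas2 in each of the 12 libraries (points), by group, with the group mean and SD (bars, n = 3); each panel has its own axis from 0. Female winter replicate 1 and female summer replicate 1 are the lowest points for Hba-a1, Hbb-b1, Hbb-b2 and Alas2, at 66.1 and 72.2 FPKM of Hba-a1.

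Among genes of similar abundance the globins were some of the most variable between libraries of the same group. The SD within groups on the log2(FPKM + 1) scale was 0.54 for Hba-a1, which ranked 42 among the 13071 tested genes, where the median was 0.1. Hbb-b1 had 0.54 and ranked 43, and Hbb-b2 had 0.63 and ranked 31. Of the 1524 tested genes with a mean of at least 50 FPKM, a bound chosen after seeing the data, Hba-a1 ranked 3 and Hbb-b1 ranked 4, behind Nap1l5 and Egr1. All 6 adult alpha and beta rows together made up 0.0266% to 0.0907% of the FPKM sum of a library.

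Hba-a1, Hbb-b1, Hbb-b2 and Alas2 rose and fell together over the 12 libraries. Hba-a2 and Hbb-bs, both at low levels, did not follow them over all 12, and Hbb-bt was at 0 throughout. Across libraries, on the log2(FPKM + 1) scale, Hba-a1 and Alas2 had a Pearson r of 0.91 (permutation p = 4e-05, adjusted p = 0.00012) and a Spearman rho of 0.9 (permutation p = 0.00022, adjusted p = 0.000825). Without the 2 libraries farthest from the median of Hba-a1, female winter replicate 1 and female summer replicate 1, r was 0.79. Over deviations from the group means it was 0.88. In this family 15 pairs were computed and adjusted with the Benjamini-Hochberg method, and the permutations were two-sided, with 100000 of them including the observed order. Hbb-bt was left out, since a gene at 0 in every library has no correlation.

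The pairs with the beta genes of the diffuse haplotype, added after seeing the data, were as close. Hba-a1 and Hbb-b1 had r of 0.93 (permutation p = 3e-05, adjusted p = 0.00012) and rho of 0.92 (permutation p = 8e-05, adjusted p = 0.0004), with r of 0.94 without the same 2 libraries. Hba-a1 and Hbb-b2 had r of 0.94 (permutation p = 3e-05, adjusted p = 0.00012) and rho of 0.96 (permutation p = 3e-05, adjusted p = 0.000225), with r of 0.9 without them. Alas2 is encoded on another chromosome from both globin clusters, shares no reads with them, and had r of 0.9 with Hbb-b2 (permutation p = 4e-05, adjusted p = 0.00012) and rho of 0.83 (permutation p = 0.00138, adjusted p = 0.00414), and r of 0.87 without male winter replicate 3 and female summer replicate 1. Alas2 and Hbb-b1 had r of 0.87 (permutation p = 0.00018, adjusted p = 0.00045) and rho of 0.75 (permutation p = 0.00698, adjusted p = 0.0174), and r of 0.82 without those 2 libraries. Hbb-b1 and Hbb-b2 had r of 0.98 (permutation p = 1e-05, the smallest these permutations can give, adjusted p = 0.00012) and rho of 0.96 (permutation p = 3e-05). Without the 2 female libraries named above their r was 0.93. How well the authors' counting separates these 2 genes is unknown.

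Hba-a2 and Hbb-bs did not follow this pattern. Hba-a1 and its copy Hba-a2 had r of 0.17 (permutation p = 0.603, adjusted p = 0.603) and rho of 0.23 (permutation p = 0.475), and r of 0.26 without female winter replicate 1 and female summer replicate 1. Hba-a1 and Hbb-bs had r of -0.6 (permutation p = 0.0449, adjusted p = 0.0749) and rho of -0.27 (permutation p = 0.391). That relation rests on the 2 libraries with the least Hba-a1, since r was 0.08 without them. Of these, female summer replicate 1 held the most Hbb-bs, at 0.31 FPKM, near the floor. Female winter replicate 1 held 0.1 FPKM, as did male winter replicate 3. Over deviations from the group means r was -0.89. The 4 remaining pairs of Hba-a2 with Hbb-bs, Alas2, Hbb-b1 and Hbb-b2 had r between -0.18 and 0.35 and rho between -0.09 and 0.41, with adjusted permutation p of 0.351 or more. Without female winter replicate 3 and female summer replicate 3 those r were -0.64 with Hbb-bs, 0.44 with Alas2, 0.7 with Hbb-b1 and 0.68 with Hbb-b2. The weak relation of Hba-a2 to the beta genes over all libraries thus rests on these 2. Hbb-bs had r between -0.74 and -0.56 with Alas2, Hbb-b1 and Hbb-b2 (adjusted permutation p from 0.0309 to 0.0873) and rho between -0.42 and -0.19 (adjusted permutation p from 0.351 to 0.602). These relations rest on 2 libraries, since r lay between -0.29 and -0.11 without male winter replicate 1 and female summer replicate 1.

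**Figure D2:**
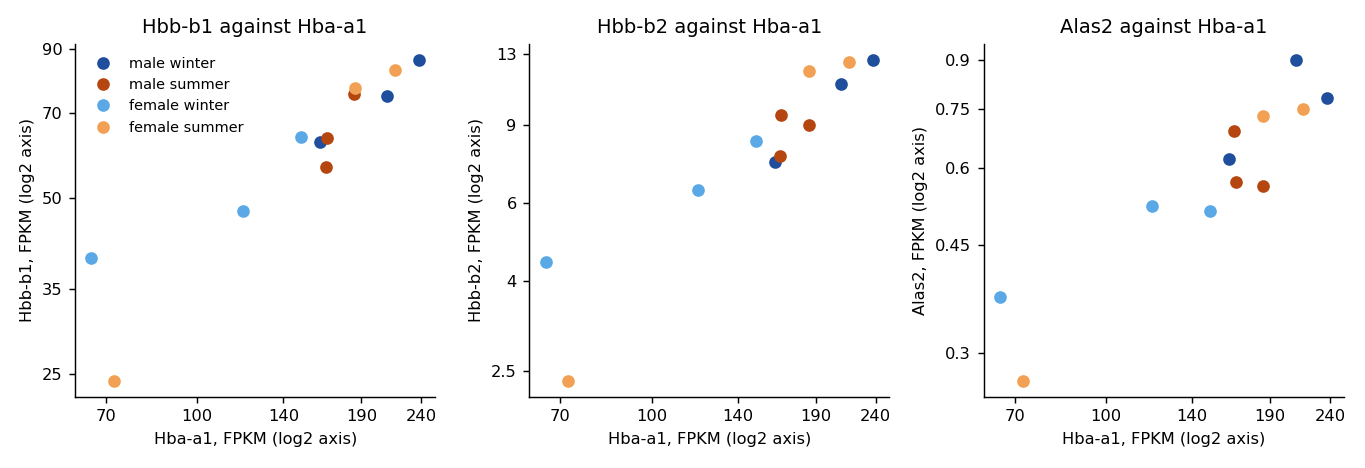
Hbb-b1, Hbb-b2 and Alas2 against Hba-a1 in the 12 libraries, in FPKM on log2 axes, coloured by group. The points rise together in all 3 panels, with female winter replicate 1 and female summer replicate 1 at the lower left and r between 0.91 and 0.94 on the log2(FPKM + 1) scale.

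The balance of alpha to beta globin varied less than the level. The sum of Hba-a1 and Hba-a2 over the sum of all 4 beta rows had a median of 2.28 and a coefficient of variation of 12.9% over the 12 libraries, against 33% for Hba-a1. The lowest ratio was 1.53, in female winter replicate 1, and the highest was 2.68, in female summer replicate 1, the 2 libraries with the least globin. The GC trends of these 2 libraries were -0.6 and 0.47. Over all 12 libraries the log2 ratio and the GC trend had r of 0.69 (permutation p = 0.00782, adjusted p = 0.0156) and rho of 0.76 (permutation p = 0.00624, adjusted p = 0.0125), with r of 0.7 without female winter replicate 1 and female summer replicate 3. The haemoglobin level, the log2 of the summed FPKM of the 4 globin members plus 1, had r of 0.07 with the GC trend (permutation p = 0.829, adjusted p = 0.829), rho of -0.11 (permutation p = 0.73) and r of -0.25 without those 2 libraries. These 2 relations were one family, chosen after seeing the data. The coding sequence of Hba-a1 has 58.3% GC and that of the reference Hbb-bs 56.1%, and the part of GC content in the ratio was not tested.

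**Figure D3:**
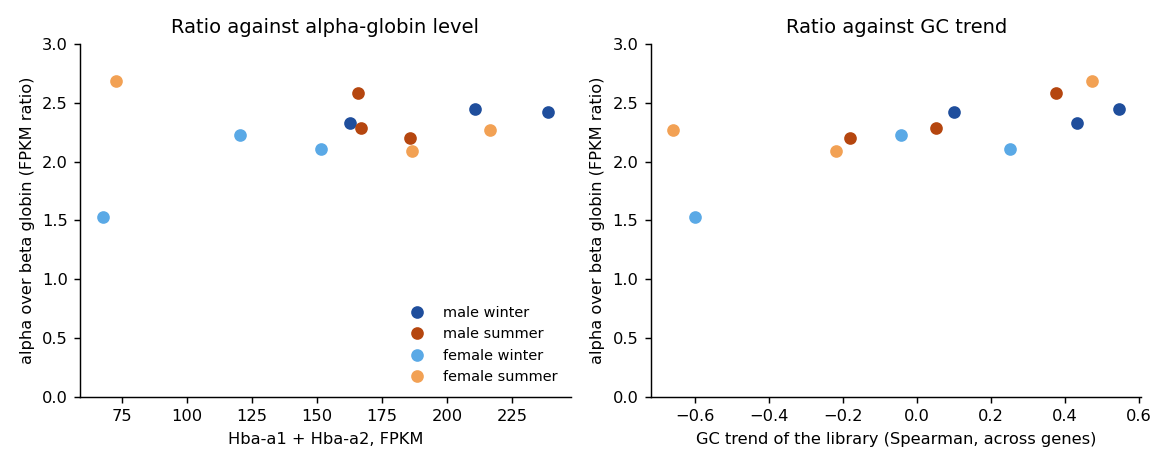
Ratio of summed alpha to summed beta globin FPKM in each library against the alpha sum (left) and against the GC trend of the library (right), with the ratio axis from 0. Most libraries lie near the median of 2.28, and the 2 with the least alpha globin have the lowest and the highest ratio, 1.53 and 2.68.

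The study's main comparison sets winter against summer housing. Neither tested member was called in either direction. The order of the group means of Hba-a1 was male winter at 203 ± 38.4 FPKM, male summer at 172 ± 11.1, female summer at 158 ± 75.8 and female winter at 112 ± 42.5 (SD, n = 3 each), and each neighbour in that order overlapped the next. Over both sexes Hba-a1 had a winter minus summer value of -0.1 ± 0.24 on the log2(FPKM + 1) scale (SE, limma, adjusted p = 0.997), a ratio of 0.933 with a 95% interval from 0.654 to 1.33. Winter and summer libraries overlapped for Hba-a1, Hba-a2, Alas2, Hbb-b1 and Hbb-b2, while 0.283% of tested genes did not overlap. Of the 2 members tested, limma called 0, and 0 had an unadjusted p under 0.05, against 0.00765% of all tested genes called.

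Hbb-b1, Hbb-b2, Hba-a2 and Alas2 were not called for season either. Hbb-b1 had 0.03 ± 0.24 and Hbb-b2 had -0.01 ± 0.28, with 95% intervals on the ratio from 0.72 to 1.45 and from 0.658 to 1.5. Hba-a2 had 0.21 ± 0.15 (limma, adjusted p = 0.997), and 0.45 ± 0.32 with a pseudocount of 0.1. Alas2, fitted without the filter, had 0.02 ± 0.08 (limma, adjusted p = 0.996), on a scale that compresses values below 1 FPKM, and 0.05 ± 0.2 with a pseudocount of 0.1. A p that misses the threshold does not show that seasons were alike, and the interval of Hba-a1 leaves room for ratios between its bounds of 0.654 and 1.33. In tissue, fewer blood cells and less globin RNA in each cell cannot be told apart. Without female winter replicate 1 the season value of Hba-a1 was 0.07, without female summer replicate 3 it was 0.05, and without female summer replicate 1 it was -0.34.

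Within each sex no member was called. Hba-a1, Hbb-b1, Hbb-b2 and Alas2 had opposite signs in the sexes, while Hba-a2 was positive in both, at 0.17 ± 0.22 in males and 0.24 ± 0.22 in females. In males Hba-a1 had a winter minus summer value of 0.22 ± 0.34, a ratio of 1.17 with a 95% interval from 0.707 to 1.92 (limma, adjusted p = 0.983). Hbb-b1, Hbb-b2 and Alas2 had 0.19, 0.21 and 0.13, all with overlapping groups, where 12.6% of tested genes did not overlap and 0.00765% were called. In females Hba-a1 had -0.42 ± 0.34, a ratio of 0.746 with a 95% interval from 0.452 to 1.23 (limma, adjusted p = 1). Hbb-b1, Hbb-b2 and Alas2 had -0.13, -0.22 and -0.1, again with overlapping groups, where 4.2% of tested genes did not overlap and 0% were called. Without female summer replicate 1 the female value of Hba-a1 was -0.91, and without female winter replicate 1 it was -0.09. The female minus male season effect of Hba-a1 was -0.65 ± 0.48 (limma, adjusted p = 0.999), with 0% of tested genes called. An exact permutation within 1 sex cannot give a p below 0.1, and Hba-a1 had exact p of 0.4 in males and 0.5 in females.

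Female libraries held less haemoglobin RNA on average, with groups that overlapped. Hba-a1 had a female minus male value of -0.59 ± 0.24 over both seasons (limma, unadjusted p = 0.0265, adjusted p = 0.403), a ratio of 0.664 with a 95% interval from 0.466 to 0.946. Males ranged from 162 to 238 FPKM and females from 66.1 to 216 FPKM. Hbb-b1 had -0.41 ± 0.24, Hbb-b2 had -0.42 ± 0.28 and Alas2 had -0.15 ± 0.08, or -0.38 ± 0.2 with a pseudocount of 0.1. Hba-a2 had -0.16 ± 0.15. Of the 2 members tested limma called 0, and 1 had an unadjusted p under 0.05, as did 1514 of all 13071 genes. Over all genes 0.0612% were called, and 0.643% had groups that did not overlap. The exact two-sided permutation of sex labels within seasons gave p = 0.1 for Hba-a1 over 400 assignments. The value rests largely on the 2 female libraries with the least globin, since it was -0.18 without both. These 2 were picked for their low Hba-a1, so leaving them out had to shrink this difference. Beside it, the platelet marker Pf4 had a female minus male value of -0.39 ± 0.09 (limma, unadjusted p = 0.000611, adjusted p = 0.232), Gp1bb -0.19 ± 0.09 and Itgb3 0.02 ± 0.06, the 3 platelet markers tested. Their part in the difference was not tested.

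**Figure D4:**
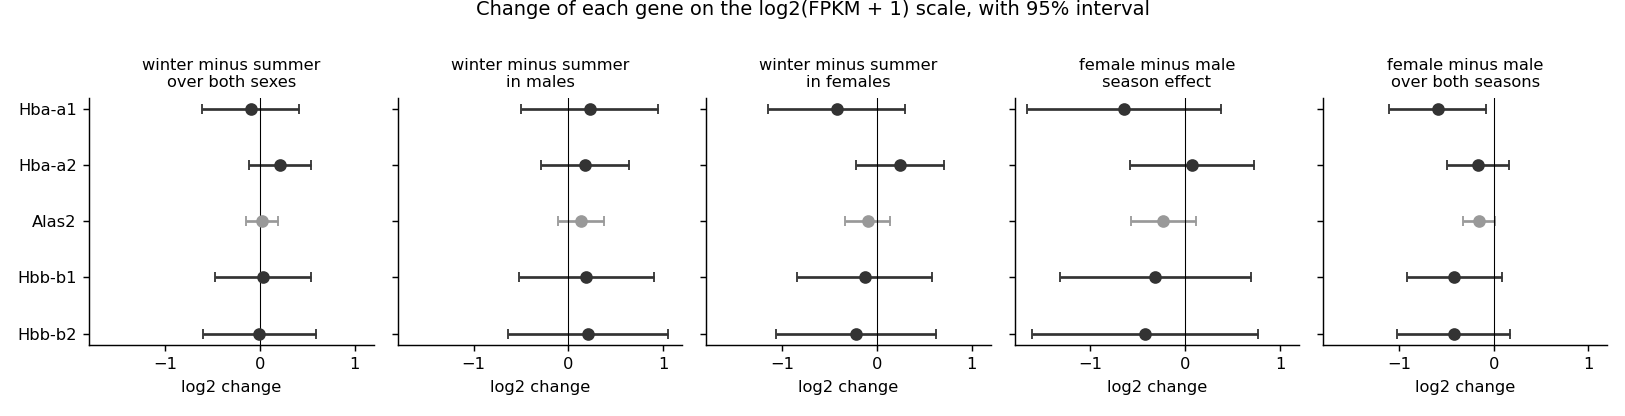
Fitted change of Hba-a1, Hba-a2, Alas2, Hbb-b1 and Hbb-b2 in the 5 contrasts on the log2(FPKM + 1) scale, with 95% intervals (limma, 12 libraries); Alas2 (grey) comes from the fit without the filter. Every interval crosses 0 except that of Hba-a1 for female minus male, which runs from -1.1 to -0.08 and did not pass the adjusted threshold.

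Which other genes followed the haemoglobin level from library to library was asked with the level as a term beside the 4 group means. The 4 globin members make up the level and were left out of the test. Hba-a1 makes up nearly all of the level, so the slopes of Hbb-b1 and Hbb-b2 largely restate their correlations with Hba-a1 above. Limma called 3 of 13069 genes, or 0.023%, and the 2 with the smallest p-values were the remaining adult beta globins. Hbb-b2 had a slope of 1.12 ± 0.11 on the log2(FPKM + 1) scale per log2 unit of the level (SE, limma, adjusted p = 0.00249), and Hbb-b1 had 0.94 ± 0.1 (limma, adjusted p = 0.00283). On this scale a gene far above 1 FPKM that changes in proportion to the level has a slope near 1, and a gene near or below 1 FPKM has a lower one, so slopes are not comparable between abundant and scarce genes. The 1 gene called lower was Slc50a1, which encodes a sugar transporter of membranes, at -0.4 ± 0.05 (limma, adjusted p = 0.0179). Slc50a1 stood at 28.7 FPKM in female winter replicate 1 and 28.8 FPKM in female summer replicate 1. In the other 10 libraries it stood between 18.2 and 25.4 FPKM. In each of the 4 groups it was highest in replicate 1, with 25.4 FPKM in male winter and 25.1 FPKM in male summer. A slope on the level and a difference by replicate number cannot be told apart here for this gene. Alas2, fitted without the filter, had a slope of 0.25 ± 0.05 (limma, unadjusted p = 0.000494, adjusted p = 0.415), at a level below 1 FPKM. Over all genes 1031 of 13069 had an unadjusted p under 0.05, to be read beside the counts for each list.

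All 3 calls were lost without female summer replicate 1, and all 3 held without female winter replicate 1, where 9 genes were called. Without both libraries limma called 0 genes, 0.96 and 1.08 remained as the slopes of Hbb-b1 and Hbb-b2 (unadjusted p = 7.82e-05 and 0.000183 by limma), and that of Slc50a1 was -0.19 (unadjusted p = 0.212 by limma). Without female summer replicate 1 alone the slopes of Hbb-b1 and Hbb-b2 were 0.61 and 0.75, and without female winter replicate 1 alone they were 1.12 and 1.31. The call of Slc50a1 was also lost without male winter replicate 2, female summer replicate 2 or female summer replicate 3. It was lost too with a level made from Hba-a1, Hba-a2, Hbb-b1 and Hbb-b2. With the replicate numbers as a block in the model, 0 genes were called. With the haemoglobin level as a covariate, 1 gene was called for winter minus summer over both sexes, as without it.

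Genes of other blood cells and of vessels were listed to set beside the globins. Of 30 listed erythroid markers, 12 passed the filter, and these include genes such as Dmtn, Add2, Ank1 and Sptb, red cell skeleton genes that neurons also express. Dmtn, at a mean of 116 FPKM the most abundant, had a slope of -0.09 ± 0.07, Mgst3 -0.07 ± 0.09, Tmcc2 0.04 ± 0.06 and Add2 0.04 ± 0.04. Genes that mark the red cell more closely were almost absent, with Slc4a1, the anion exchanger of the red cell membrane, at 0.04 FPKM or less and Rhag at 0 in all 12 libraries. Of the 12 that passed, 8 had positive and 4 negative slopes on the haemoglobin level, with a median of 0.02 beside -0.01 over all genes. Limma called 0, and 1, Aqp1, had an unadjusted p under 0.05, with a slope of 0.25 ± 0.08. Aqp1 is also in the choroid plexus list below. The summed level of this list ran from 372 to 429 FPKM, lowest in female summer replicate 3.

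Most markers of the other blood cells lay below 1 FPKM in every library, namely 9 of 12 for platelets, 12 of 14 for neutrophils and 14 of 17 for lymphocytes and monocytes. Of 12 platelet markers 3 passed the filter, Gp1bb, Itgb3 and Pf4, and the sum of the list lay between 5.52 and 8.55 FPKM. Pf4, a platelet chemokine that some macrophages also make, ranged from 0.31 to 1.26 FPKM with a slope of -0.22 ± 0.08 (limma, adjusted p = 0.594). Of 14 neutrophil markers 1 passed, Csf3r at 1.71 to 2.82 FPKM and a slope of -0.01 ± 0.07, with S100a8 and S100a9 at 0.51 FPKM or less. Of 17 lymphocyte and monocyte markers 3 passed, Cd4, Cd52 and Ly6c2, and the sum of the list lay between 10.1 and 12.9 FPKM, with the T cell gene Cd3e at 0.08 FPKM or less and the B cell gene Ms4a1 at 0.07 or less. In these 3 lists limma called 0 of 7 tested genes for the haemoglobin level, and 1, Pf4, had an unadjusted p under 0.05.

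The rest of the globin family kept a separate pattern. Cygb and Ngb, which encode cytoglobin and neuroglobin and are made by brain cells, stood between 24.5 and 29.6 FPKM and between 5.47 and 9.32 FPKM. Hbq1a, a theta globin of the alpha cluster, stood between 1.82 and 3.47 FPKM, had a slope of -0.28 ± 0.11 (limma, adjusted p = 0.594), and its copy Hbq1b between 0.56 and 1.34 FPKM. The embryonic globins Hbb-y, Hbb-bh1 and Hba-x were not analysed here. Of the 6 genes tested in this list, 2 were called, Hbb-b1 and Hbb-b2, and 4 had negative slopes.

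No gene that makes or handles haem was called for the haemoglobin level. Of 18 haem synthesis genes, all tested, 8 had positive and 10 negative slopes with a median of -0.02, and limma called 0, with 1 at an unadjusted p under 0.05. Alas1, which starts haem synthesis outside red cells, had 0.12 ± 0.11, and Alad and Urod, enzymes of later steps, had -0.08 ± 0.06 and -0.06 ± 0.05. For winter minus summer over both sexes 13 of the 18 were positive, with a median of 0.02 beside -0.003 over all genes and 0 called by limma, 1 of them at an unadjusted p under 0.05. Of 16 tested genes of haemoglobin, haem and iron handling, 8 had positive and 8 negative slopes with 0 called, 0 of them at an unadjusted p under 0.05. Fth1 and Ftl1, which encode the ferritin chains that store iron, had -0.1 ± 0.06 and -0.07 ± 0.07. Hmox1, which breaks down haem, had 0.14 ± 0.09 and stood between 2.32 and 3.67 FPKM. The haemoglobin receptor gene Cd163 stood at 0.22 FPKM or less. Of 17 tested red cell transcripts that brain cells also make, such as Ubb, Prdx2 and Car2, 3 had positive and 14 negative slopes with a median of -0.05, and limma called 0, 0 of them at an unadjusted p under 0.05.

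No vessel or choroid plexus gene was called for the haemoglobin level. Of 16 brain endothelial genes 10 had positive slopes, with a median of 0.06, a range from -0.2 to 0.26, 0 called by limma and 2 at an unadjusted p under 0.05, Flt1 at 0.26 ± 0.07 and Slco1c1 at 0.17 ± 0.06. Slc2a1, the glucose transporter of the barrier and the most abundant of the list, had 0.16 ± 0.08. Of 14 mural and meningeal genes 13 had negative slopes, with a median of -0.09, 0 called by limma and 4 at an unadjusted p under 0.05, among them the smooth muscle gene Tagln at -0.28 ± 0.09 and the fibroblast gene Col1a1 at -0.17 ± 0.06. Of 8 choroid plexus genes 8 had positive slopes, with a median of 0.21, 0 called by limma and 5 at an unadjusted p under 0.05. Among these 5 was Aqp1, which is also in the erythroid list. Folr1, a folate receptor of that epithelium, had 0.57 ± 0.13 and Kl, which encodes klotho, 0.26 ± 0.06. The summed level of the endothelial list varied from 188 to 220 FPKM, of the mural and meningeal list from 92 to 112 FPKM and of the choroid plexus list, mostly Ttr, from 274 to 432 FPKM. Among males the choroid plexus sum lay between 274 and 383 FPKM in winter and between 378 and 420 FPKM in summer. Among females it lay between 384 and 432 FPKM in winter and between 315 and 424 FPKM in summer. Of the 2 libraries with the least globin, female winter replicate 1 had the highest sum, 432 FPKM, and female summer replicate 1 one of the lowest, 315 FPKM. None of the list was at 0 in all libraries. The part of these cell types in the globin differences was not tested. In the 5 contrasts of season and sex, limma called 0 genes of these 3 vessel and choroid plexus lists and 0 of the other lists above.

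**Figure D5:**
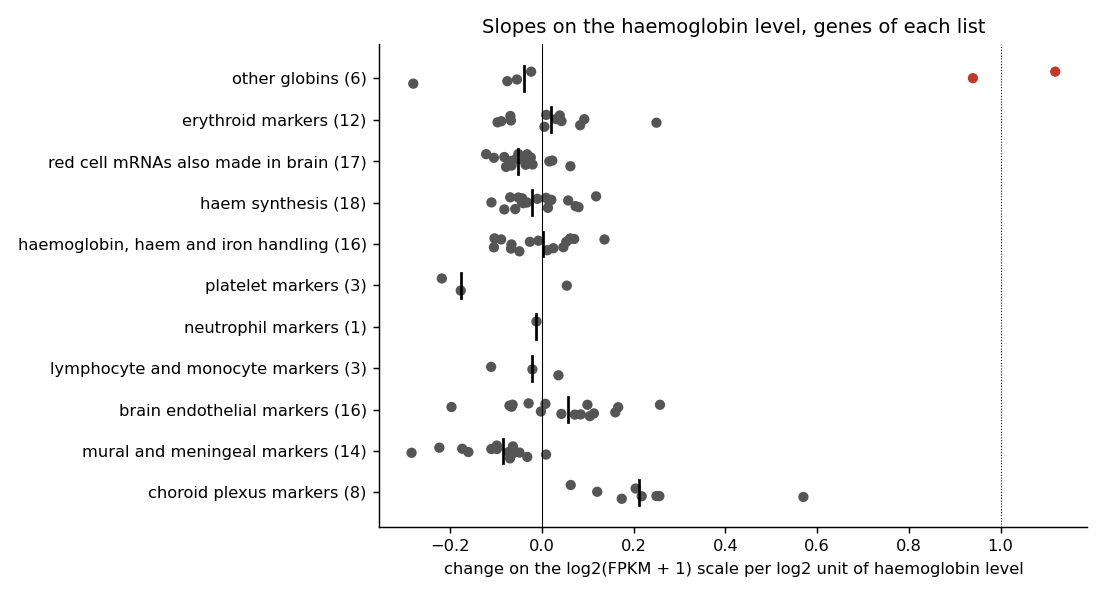
Slopes of the tested genes of each list on the haemoglobin level (change on the log2(FPKM + 1) scale per log2 unit, with the number of genes in brackets, vertical ticks at the list median, dotted line at 1 and called genes in red). Only Hbb-b1 and Hbb-b2, at 0.94 and 1.12, lie near 1 among the listed genes, and the next highest is Folr1 at 0.57, a gene at 0.25 to 1.89 FPKM, where the added 1 FPKM lowers slopes.

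Tested genes outside the members were ranked by Pearson r with the haemoglobin level over the 12 libraries. Gene models without a name and symbols listed more than once were left out of the ranking. The most alike were Hbb-b2 at 0.94 and Hbb-b1 at 0.93, with Spearman rho of 0.96 and 0.92. The next were Slain2 at 0.84, Amer2 at 0.82, Nr4a2 at 0.81, Cdh5 at 0.8 and Zfp275 at 0.78, followed by Stard9, Tmtc3 and Rbm12 between 0.77 and 0.78. Those 8 had narrower ranges than the globins, from 6.38 to 7.5 FPKM for Slain2 to 2.72 to 3.87 FPKM for Tmtc3 and 11.5 to 16.1 FPKM for Nr4a2. Over all 13069 tested genes outside the members, named or not, an r above 0.8 was reached by 5 and one under -0.8 by 13. These correlations rank genes over 12 libraries that share the 2 low values, and carry no test.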

How the data were processed

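RNA was poly-A selected and made into paired-end strand-specific libraries, per the labels' protocols. The submitters' processing notes name HISAT and RSEM and, as genome, GRCm38.p6, without versions of the tools. The authors deposited FPKM values, rounded to 2 decimals, for 18962 genes in 12 libraries of 4 groups. One line without values was not used here. RSEM can share reads between near-identical copies. FPKM is relative to the rest of a library, and without counts the depth is unknown, so no counting error is given.

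Tests used log2(FPKM + 1), a scale on which low genes change less than in FPKM. The filter was 1 FPKM or more in 3 libraries or more, which 13071 genes passed. One limma model of 4 group means with 8 residual degrees of freedom, or 7 with the haemoglobin level as a term, gave two-sided tests with trended variances, adjusted by Benjamini-Hochberg over all genes at 0.05. Alas2 lay below the filter and comes from the same model over every gene above 0. Members and gene lists were chosen with earlier results of these data known. The rule for named genes takes all members, the list genes that were called, up to 4 of the most abundant tested genes of each list, the genes called for the level and the 10 most like it. Other list genes were named after their values were seen, and some of the 4 are not printed. R 4.3.3, limma 3.58.1, Python 3.11.15, scipy 1.17.1 and matplotlib 3.10.9 were used.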

Additional observations from a re-analysis of the deposited data

How the results depend on the processing

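Limma called 0 members in each of the 5 contrasts under every alternative run (pseudocount 0.1, no filter, 3 scalings, untrended variances, the replicate block, summed copies, GC correction with and without the block, each library left out, and both low-globin libraries left out). The sum of Hbb-bs and Hbb-bt did not pass the filter and gave no value. The GC correction, the removal of both low-globin libraries and the level with Hbb-b1 and Hbb-b2 were chosen after seeing the data. Signs turned where values lay near 0. For winter minus summer over both sexes, leaving out 1 library at a time gave -0.34 to 0.067 for Hba-a1, -0.25 to 0.18 for Hbb-b1, -0.33 to 0.16 for Hbb-b2 and -0.057 to 0.059 for Alas2. In females it gave -0.68 to 0.18 for Hbb-b1 and -0.88 to 0.12 for Hbb-b2, and for the female minus male season effect of Hba-a2 -0.12 to 0.35. Hbb-b2 over both sexes was 0.011 with a pseudocount of 0.1 and 0.0014 when libraries were rescaled to a common sum, with or without the members. Without female winter replicate 1 and female summer replicate 1 together, the season values of Hbb-b1 and Alas2 were -0.17 and -0.032, the interaction of Hba-a2 -0.12 and the sex value of Hbb-b2 0.011.

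Genes following the haemoglobin level numbered 3 as reported, 0 to 9 with 1 library left out (0 when female summer replicate 1 was dropped and 9 when it was female winter replicate 1), 5 with untrended variances, and 0 with the replicate block, with GC correction and the block, without both low-globin libraries, or with a level made from Hba-a1, Hba-a2, Hbb-b1 and Hbb-b2, which removes the beta genes from the test. Slc50a1 stayed in the test with this last level and was not called. With a level from Hba-a1 and Hba-a2 alone, the same 3 genes were called. With a level from Hbb-bs and Hbb-bt, which lay at or near 0, Hbb-b1 was called lower and Slc50a1 higher. Both signs are the reverse of those as reported. Hbb-bs had r of -0.74 with Hbb-b1 over the libraries, and -0.91 over deviations from the group means. With the block the slopes of Hbb-b1 and Hbb-b2 were 1.09 and 1.3. Both low-globin libraries carry the number 1. The cause was not tested. Over all tested genes, same-numbered libraries had correlations of deviations between -0.23 and 0.24 with a median of 0.04. Libraries of different numbers had correlations between -0.32 and 0.34 with a median of -0.01. By these values 4 of 12 libraries were closest to their own number. Such correlations are taken over all genes and cannot show whether the replicate number matters for the globins or Slc50a1. The correlation of Hba-a1 with Hbb-bs was 0.079 without the 2 farthest libraries and -0.56 with a pseudocount of 0.1. That of Hba-a2 with Hbb-bs was -0.64 without the 2 farthest, and that of Hbb-bs with Alas2 -0.87 over deviations from group means.

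Depth is unknown, so the counting error of values near 0, as for Hbb-bs, Hba-a2 and Alas2, cannot be given. The GC correction reached Hba-a1 and Alas2 in the contrasts and not Hbb-b1 and Hbb-b2, for which no GC value was at hand. The haemoglobin level was made from uncorrected FPKM throughout. For Hbb-b1 and Hbb-b2 the fits on the level with GC correction therefore corrected neither the level nor the gene.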
